A study of Mus musculus with 24 samples.

Results

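The 10 genes described here encode enzymes that make, lengthen and desaturate fatty acids. They were chosen by name (Acly, Acaca, Fasn, Scd1, Scd2, Elovl1, Elovl5, Elovl6, Fads1 and Fads2), and each of the 10 was found once among the 41710 genes of both tables of RNA-seq values. The samples were 24 libraries of mouse embryonic fibroblasts (MEFs) in 8 groups of 3, namely WT, MlxKO, MycKO and DKO (Myc and Mlx both excised), each as primary cells and as cells immortalized with SV40 T-antigen. The MEFs came from pooled embryos of about embryonic day 14 to 16. The MEF lines carried floxed alleles of Myc, of Mlx or of both, together with 2 copies of a CreER transgene driven by the ubiquitously active ROSA26 promoter. In the paper WT names such cells with the floxed genes left intact. Excision used 500 nM 4-hydroxytamoxifen (4OHT) for 7 days in primary and 10 days in immortalized cells, and primary cells were sampled for RNA at about day 10. Controls received the ethanol vehicle in place of 4OHT, and immortalized WT cells had been kept free of 4OHT, so that exposure to 4OHT and genotype cannot be told apart. WT cells kept both genes, and the study mostly used a single WT line as its control. The paper does not name the WT line used for RNA. The knockouts came from separate floxed lines, so that line and genotype cannot be told apart where a knockout and its WT differ in line. Immortalized cells had been transduced with a lentivirus encoding T-antigen and selected with blasticidin. Primary MycKO and DKO cells were growth-arrested, so that genotype and arrest cannot be told apart in them. The paper reports most immortalized MycKO cells as tetraploid or pseudo-tetraploid. Genotype and ploidy thus cannot be told apart in any immortalized comparison that uses MycKO cells, the interaction included. The 3 libraries of a group came from triplicate RNAs, and the p-values measure only the spread between such libraries, which may in part be technical.

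Fatty acid synthesis starts in the cytosol, where ATP-citrate lyase (Acly) releases acetyl-CoA from citrate and acetyl-CoA carboxylase (Acaca) turns it into malonyl-CoA. Fatty acid synthase (Fasn) then builds palmitate from these units. In the endoplasmic reticulum the Elovl elongases lengthen the chain, with Elovl6 acting on palmitate and other saturated or monounsaturated chains, Elovl5 on polyunsaturated chains and Elovl1 on very long saturated ones, while the stearoyl-CoA desaturases Scd1 and Scd2 make oleate and palmitoleate. The desaturases Fads1 and Fads2 act on the essential polyunsaturated fatty acids. Many of these genes are known targets of SREBP factors, which are released by Scap and held back by Insig1 and Insig2 when sterols are plentiful. Myc with its partner Max, and Mlx with Mlxip (MondoA) or Mlxipl (ChREBP), bind E-boxes, of which CACGTG is the core sequence.

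All 10 genes were annotated as protein-coding on GRCm39. Fasn lay on chromosome 11 from 120696672 to 120715995, minus strand, and Acly (100367165 to 100440756, minus strand) and Acaca (84020476 to 84292477, plus strand) were on the same chromosome. Chromosome 19 held both desaturase pairs. Fads2 (10038130 to 10079203, minus strand) and Fads1 (10160167 to 10174241, plus strand) were 80963 bases apart and faced away from each other, and Fads3 ended 201 bases before the 3′ end of Fads2. Scd2 (44281613 to 44295303, plus strand) and Scd1 (44382894 to 44399154, minus strand) were 87590 bases apart and faced each other. The elongases were scattered, with Elovl6 on chromosome 3 (129326004 to 129432144), Elovl1 on chromosome 4 (118284346 to 118290150) and Elovl5 on chromosome 9 (77818113 to 77891802), all on the plus strand.

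Promoters of 7 of the 10 genes were matched in RefSeq on GRCm38.p6, as 250 bases before and 50 bases after the annotated start, 8 sequences in all because Elovl1 had 2; Scd1, Scd2 and Fads1 were not matched. They were searched on both strands for the E-box CACGTG, the CCAAT box of the factor NF-Y, the sterol regulatory element SRE-1 and its looser form TCACNCCAC. CACGTG was present in the Elovl5 promoter, with its first base at -161 from the start, and in no other of the 8, against 7.15% of 32851 promoters of the same length. CCAAT was present in those of Acly, Fasn and Elovl5 and in 1 of the 2 for Elovl1, against 37.4% of all promoters. Neither sterol element was present in any of the 8, against 0.0913% of all promoters for SRE-1 and 1.24% for TCACNCCAC. A match is a description of letters and not of binding. Of these, 3 promoters are shown because Fasn held 3 CCAAT boxes, because Elovl5 was the only matched gene with the E-box, and because Elovl6, whose mRNA fell the most in primary MycKO and DKO cells, held none of the 4 motifs. The build is GRCm38.p6 and capitals mark the E-box or a CCAAT box, which reads ATTGG where it lies on the other strand.
Fasn, chr11:120824498-120824797, minus strand: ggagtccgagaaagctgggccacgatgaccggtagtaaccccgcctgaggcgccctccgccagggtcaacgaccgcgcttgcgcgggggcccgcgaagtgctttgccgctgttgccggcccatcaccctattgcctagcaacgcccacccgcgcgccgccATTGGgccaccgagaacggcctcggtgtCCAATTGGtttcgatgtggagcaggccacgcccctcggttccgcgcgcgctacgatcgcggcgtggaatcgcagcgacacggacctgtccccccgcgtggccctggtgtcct
Elovl5, chr9:77917115-77917414, plus strand: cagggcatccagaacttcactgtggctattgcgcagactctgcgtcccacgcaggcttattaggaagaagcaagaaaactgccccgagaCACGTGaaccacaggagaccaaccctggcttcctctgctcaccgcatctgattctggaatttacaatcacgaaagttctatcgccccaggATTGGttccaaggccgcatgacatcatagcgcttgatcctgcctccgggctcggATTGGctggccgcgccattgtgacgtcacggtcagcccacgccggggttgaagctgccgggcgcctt
Elovl6, chr3:129532136-129532435, plus strand: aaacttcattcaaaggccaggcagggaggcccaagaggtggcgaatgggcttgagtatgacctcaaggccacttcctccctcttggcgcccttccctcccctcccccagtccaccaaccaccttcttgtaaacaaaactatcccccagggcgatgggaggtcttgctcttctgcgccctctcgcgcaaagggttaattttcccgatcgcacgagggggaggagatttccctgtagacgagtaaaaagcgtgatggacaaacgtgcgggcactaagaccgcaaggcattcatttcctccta
In Fasn the CCAAT boxes began at -90, -62 and -59, and the last pair overlapped on opposite strands. In Elovl5 they began at -71 and -17.

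Values are CPM, read counts relative to library size as scaled between libraries by the authors. Depth was 15986856 to 20966163 reads on genes per library, so that 3 reads corresponded to between 0.145 and 0.196 CPM, and all 10 genes lay far above this in every library and passed the filter on low values (1 CPM or more in 3 or more of the 12 libraries of a table). Myc mRNA was lower in every MycKO and DKO library (4.25 to 26.8 CPM) than in every WT and MlxKO library (39.9 to 177.5 CPM), and Mlx mRNA was lower in every MlxKO and DKO library (9.73 to 18.0 CPM) than in the WT libraries (20.5 to 26.0 CPM). The fall of Mlx in immortalized DKO cells did not pass the test (limma adjusted p = 0.0694). All 11 fibroblast markers were present in every group. In primary MycKO and in primary DKO cells 9 of the 11 were higher than in WT and 1 was lower, and their summed level was 61312 to 63825 and 62554 to 63385 CPM against 46001 to 50000 in WT and 47198 to 52245 in MlxKO. In immortalized cells it was 26827 to 35038 CPM in WT, 19225 to 23855 in MlxKO, 19172 to 25962 in MycKO and 27701 to 36053 in DKO. Of 8 adipocyte markers, 6 (Adipoq, Plin1, Cidec, Lep, Cfd and Cidea) were below 1 CPM in every library, and the summed level of the list was 7.39 to 13.1 CPM in primary cells. In immortalized cells it was 35.4 to 47.1 CPM in WT, 17.2 to 18.6 in MlxKO, 10.7 to 13.001 in MycKO and 29.3 to 40.1 in DKO. Both tested adipocyte markers, Fabp4 and Pparg, fell in immortalized MycKO cells (median log2 fold change -1.68) and were higher in DKO than in MycKO cells (1.21). The part of fibroblast and adipocyte genes in the results below was not tested. The third immortalized WT library stood apart from the others of its group, with a correlation as low as 0.943 within its group where the best pair reached 0.992 and with 177.5 CPM of Myc against 48.1 and 39.9. In immortalized cells the calls against WT and in the interaction are given with and without it. Sums, levels and ratios include it.

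The summed CPM of the 10 genes gives the scale of the program. In primary cells it was 2544, 2654 and 2639 in the WT libraries and 1562, 1598 and 1567 in the MycKO libraries. DKO libraries summed to 1521, 1500 and 1371 CPM and MlxKO libraries to 2899, 2957 and 2825 CPM. Thus the groups without Myc lay below WT and the MlxKO group above it, with no overlap. In immortalized cells the mean sum was 4091 ± 379 CPM in WT, 3321 ± 222 in MlxKO, 2149 ± 319 in MycKO and 2207 ± 166 in DKO (SD, n = 3). The MycKO mean was 60.3% of WT in primary and 52.5% in immortalized cells, and the DKO mean 56.0% and 54.0%. These sums are weighted towards Scd2, which gave 42.9% to 44.0% of the sum in primary WT libraries and 49.3% to 57.2% in immortalized WT libraries.

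**Figure D1:**
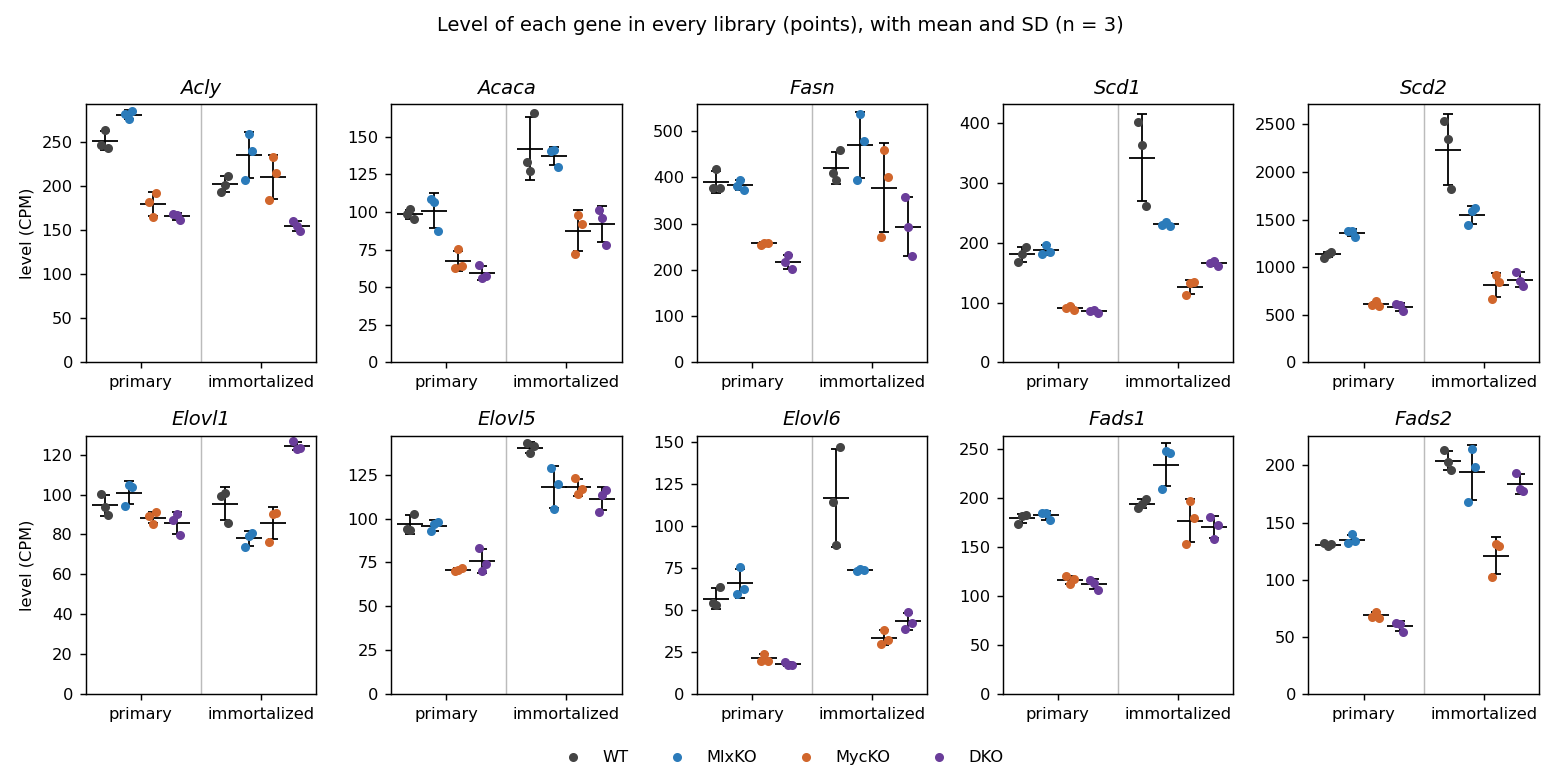
Level of each of the 10 genes in CPM (vertical axis, from 0) in every library (points), by genotype (colour) and cell state (left and right of each panel), with the mean and SD of 3 libraries. In primary cells the MycKO and DKO points lie below WT for every gene but Elovl1, for which DKO and WT points share a range, while in immortalized cells Fasn points of all 4 genotypes overlap with those of another genotype.

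Per kilobase of merged exon length, Scd2 was the most abundant of the 10 mRNAs in all 8 groups. In primary WT cells its level was 150.6 ± 4.05 CPM per kb, followed by Fasn (33.4 ± 2.02) and Fads1 (31.9 ± 0.818), whose libraries overlapped. Scd1 (25.1 ± 1.68) and Fads2 (19.996 ± 0.203) came next, each separate from its neighbours in the order. Elovl1 (17.4 ± 0.971), Acly (17.3 ± 0.744) and Elovl5 (17.0 ± 0.912) could not be ordered, and Elovl6 (6.68 ± 0.715) and Acaca (5.36 ± 0.166) were the least abundant. In immortalized WT cells Scd2 stood at 296.6 ± 49.4 CPM per kb and Scd1 was second at 47.6 ± 10.0, with libraries that overlapped those of Fasn (35.9 ± 2.91). Elovl6 was last in primary MycKO (2.48 ± 0.301) and primary DKO cells (2.10 ± 0.131), below Acaca without overlap.

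In primary MycKO cells 9 of the 10 mRNAs were lower than in WT. This comparison sets MycKO beside WT in cells that have not been immortalized. Acly, Acaca, Fasn, Scd1, Scd2, Elovl5, Elovl6, Fads1 and Fads2 fell in MycKO cells, and Elovl1 did not pass the test. Of all 13101 genes tested, 42.3% were called, 20.4% higher and 21.9% lower. The median log2 fold change of the 10 was -0.61, where that of all genes was 0.00021. The libraries of MycKO and WT did not overlap for the same 9 genes, which held for 48.1% of all genes.

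Among the genes of synthesis proper, Acly measured 246.8, 264.1 and 244.0 CPM in the primary WT libraries and 182.7, 165.5 and 192.1 CPM in MycKO, a log2 fold change of -0.48 ± 0.061 (SE, limma adjusted p = 9.79e-06). Fasn measured 376.8, 418.0 and 377.3 CPM in WT and 254.7, 259.0 and 258.5 CPM in MycKO (log2 fold change -0.60 ± 0.063, limma adjusted p = 1.28e-06). Acaca fell from 98.6 ± 3.06 to 67.6 ± 6.75 CPM (SD, n = 3). Each of these 3 mRNAs was thus reduced to between 66.0% and 71.6% of its WT level on the fitted scale.

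The deepest falls were those of genes that act on the finished chain. Elovl6, the elongase that carries palmitate to stearate, measured 53.8, 52.6 and 63.6 CPM in primary WT and 19.5, 24.005 and 19.7 CPM in MycKO. Its log2 fold change of -1.39 ± 0.11 (limma adjusted p = 4.88e-08) was the largest of the 10, and its 95% interval (-1.61 to -1.16) did not overlap that of any other of the 10 genes. Scd1, which introduces the double bond of oleate, went from 168.4, 181.0 and 192.6 CPM to 91.4, 94.8 and 87.9 CPM (-0.97 ± 0.063, limma adjusted p = 8.45e-09). Scd2, the main isoform in these cells, went from 1101, 1139 and 1161 CPM to 604.5, 640.0 and 596.8 CPM (-0.88 ± 0.063, limma adjusted p = 2.09e-08). The highest MycKO library was below the lowest WT library for all 3 genes. Fads2, which opens the desaturation of linoleate and linolenate, measured 131.7, 129.1 and 131.0 CPM in WT and 67.5, 71.7 and 66.9 CPM in MycKO (-0.92 ± 0.063, limma adjusted p = 1.62e-08). Fads1, which acts at a later step of the same route, fell less, with a log2 fold change of -0.62 ± 0.057 whose interval (-0.74 to -0.49) was separate from that of Fads2 (-1.05 to -0.78). The Fads2 to Fads1 ratio within a library was 0.714 to 0.759 in WT and 0.562 to 0.642 in MycKO.

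The remaining elongases had the smallest values. Elovl5 went from 93.9, 93.4 and 102.6 CPM in primary WT to 69.9, 70.4 and 71.9 CPM in MycKO (-0.44 ± 0.070, limma adjusted p = 7.98e-05). Elovl1 measured 100.2, 93.8 and 89.7 CPM in WT and 89.0, 85.2 and 91.0 CPM in MycKO, overlapping groups with a log2 fold change of -0.09 ± 0.069 (95% interval -0.24 to 0.05, limma adjusted p = 0.290). With library totals in place of the authors' scaling the Elovl1 value was -0.20 and passed the test (limma adjusted p = 0.0259). Exons of Elovl1 overlap those of Cdc20, a mitotic gene on the opposite strand, and how the counting used strand is not given in the sources used here. Cdc20 fell in primary MycKO cells by 0.48 on the log2 scale.

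In primary DKO cells 9 of the 10 genes fell, and Elovl1 did not pass the test (limma log2 fold change -0.14, adjusted p = 0.102, and -0.22 with 0.0116 under library totals). Here 49.5% of all genes were called, 24% higher and 25.5% lower, and 60.8% had groups that did not overlap, against 9 of the 10. The median log2 fold change of the 10 was -0.79. Elovl6 measured 19.1, 17.3 and 17.0 CPM in DKO, a log2 fold change of -1.61 ± 0.11 against WT (limma adjusted p = 6.17e-09). Fads2 (62.2, 61.4 and 54.5 CPM, -1.13), Scd1 (86.4, 87.5 and 82.5 CPM, -1.07) and Scd2 (615.9, 605.0 and 537.2 CPM, -0.95) followed it. Fasn, at 216.8, 232.0 and 201.0 CPM, had fallen by 0.85 on the log2 scale, further than Acaca (-0.72), Fads1 (-0.68), Acly (-0.60) and Elovl5 (-0.35). The MycKO and DKO comparisons share their WT libraries, so the likeness of their lists is in part built in.

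**Figure D2:**
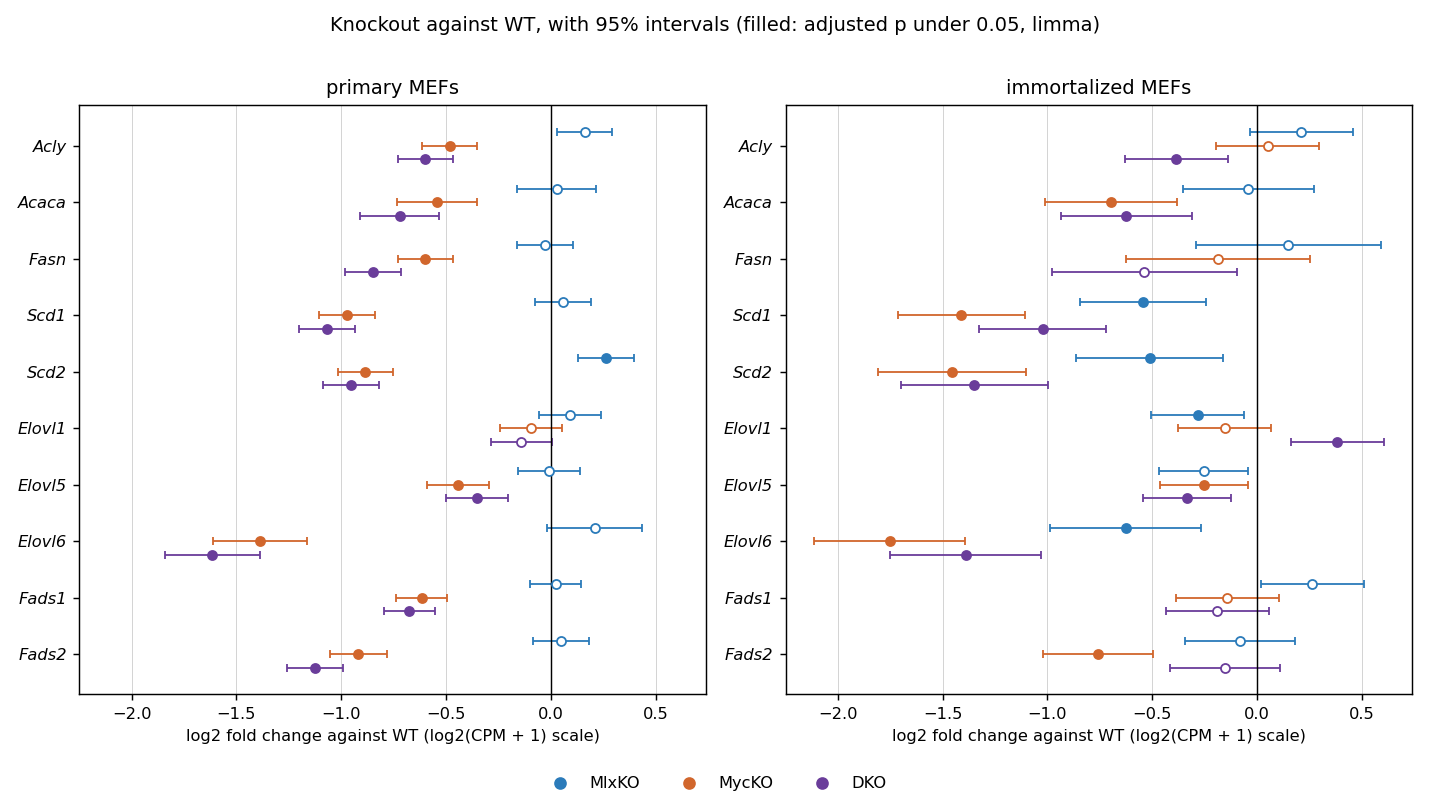
Log2 fold change of each gene against WT on the log2(CPM + 1) scale (horizontal axis) in primary (left) and immortalized MEFs (right), with 95% intervals from limma. Filled points passed an adjusted p of 0.05. In primary cells MycKO and DKO have filled points left of 0 for 9 of the 10 genes and Elovl6 is farthest left at -1.39 and -1.61, and in immortalized cells Fasn and Fads1 have no filled point.

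Primary cells without Myc also held less signal from macrophage genes. The summed level of 9 macrophage markers was 278 to 553 CPM in WT, 299 to 376 in MlxKO, 48.9 to 76.2 in MycKO and 95.02 to 230 in DKO cells. All 9 markers fell in primary MycKO cells, and their part in the falls described above was not tested. In bulk RNA, fewer cells of a type and less RNA per cell cannot be told apart. In immortalized cells the same list summed to at most 5.74 CPM in any library. Of the other lists, the summed epithelial markers were 25.4 to 29.5 CPM in primary WT and 5.86 to 10.8 CPM in the primary knockouts, endothelial and muscle markers summed to at most 19.5 and 1.504 CPM in any library, and neural markers to at most 100.9 CPM.

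With Mlx alone lost, few differences passed the test in primary cells. Scd2 rose and no other of the 10 passed the test, against 8.88% of all genes called, 3.75% higher and 5.14% lower. Scd2 measured 1101, 1139 and 1161 CPM in WT and 1382, 1382 and 1319 CPM in MlxKO, groups that did not overlap, with a log2 fold change of 0.26 ± 0.063 (limma adjusted p = 0.0137). Groups did not overlap for 3 of the 10, against 28.3% of all genes. The call was lost when WT library 1 (adjusted p = 0.0710), WT library 2 (0.0506) or MlxKO library 2 (0.0563) was left out, with limma log2 fold changes of 0.24, 0.27 and 0.25. Acly (0.16) and Elovl6 (0.21) were the next largest values and did not pass, and Fasn stood at -0.03 with a 95% interval of -0.16 to 0.11. Of the 2 desaturases Scd2 had the larger value, and the Scd2 to Scd1 ratio was 7.02 to 7.61 in MlxKO libraries against 6.03 to 6.54 in WT.

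DKO cells were also compared with MycKO cells, and both of these groups lack Myc. They came from separate floxed lines, so that line and Mlx genotype cannot be told apart here or in the interaction. In primary cells Fasn (-0.25 ± 0.063, limma adjusted p = 0.00817) and Fads2 (-0.21 ± 0.063, limma adjusted p = 0.0262) were lower in DKO, where 21.5% of all genes were called, 10.6% higher and 11% lower. The Fasn libraries measured 254.7, 259.0 and 258.5 CPM in MycKO and 216.8, 232.0 and 201.0 CPM in DKO and did not overlap, nor did those of Fads2. Groups did not overlap for 4 of the 10, against 36.9% of all genes. Without DKO library 3, the lowest for both genes, neither passed (limma log2 fold change -0.20 and adjusted p = 0.0610 for Fasn, -0.15 and 0.157 for Fads2).

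The Myc-by-Mlx interaction tests whether the effect of Mlx loss differs between cells with and without Myc. In primary cells it was below 0 for Scd2 (-0.33 ± 0.088, limma adjusted p = 0.0175) and Acly (-0.28 ± 0.087, limma adjusted p = 0.0434), where 13.5% of all genes were called, 7.47% higher and 6.07% lower. For both, the log2 value was above 0 in MlxKO against WT (0.26 and 0.16) and below 0 in DKO against MycKO (-0.07 and -0.12), and of these values that of Scd2 in MlxKO passed its own test. Elovl6 had the largest value of the 10 (-0.44) and did not pass (limma adjusted p = 0.0671). It passed without WT library 3 (-0.52, limma adjusted p = 0.0277), and Fads2 passed under library totals (-0.27, limma adjusted p = 0.0487). The Scd2 call was lost without WT library 1 (-0.31, adjusted p = 0.0528) or without DKO library 3 (-0.27, adjusted p = 0.0616), and that of Acly when any of 10 of the 12 libraries was left out (limma adjusted p = 0.0672 to 0.112, log2 values -0.29 to -0.23).

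In immortalized MycKO cells 6 of the 10 mRNAs were lower than in WT. Elovl6, Scd2, Scd1, Fads2, Acaca and Elovl5 fell in MycKO cells, and Acly, Fasn, Elovl1 and Fads1 did not pass the test. Among the 12880 genes tested here 48% were called, 24.4% higher and 23.5% lower, and 51.1% had groups that did not overlap, against 6 of the 10 genes. Primary and immortalized cells were measured in separate tables and the difference between them was not tested.

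Elovl6 measured 113.9, 88.5 and 146.9 CPM in immortalized WT and 29.5, 38.2 and 32.1 CPM in MycKO (-1.75 ± 0.17, limma adjusted p = 6.76e-06). Scd2 measured 2538, 2343 and 1818 CPM in WT and 668.9, 919.6 and 849.4 CPM in MycKO (-1.46 ± 0.16, limma adjusted p = 2.50e-05). Scd1 measured 401.8, 364.6 and 262.2 CPM in WT and 113.3, 133.0 and 133.8 CPM in MycKO (-1.41 ± 0.14, limma adjusted p = 9.79e-06). In each case every MycKO library was below every WT library, and the WT library that stands apart was the lowest for both Scd genes and the highest for Elovl6. Without it the log2 fold changes were -1.57 for Elovl6, -1.60 for Scd2 and -1.59 for Scd1. Fads2 measured 213.2, 203.4 and 196.0 CPM in WT and 102.2, 131.0 and 129.8 CPM in MycKO (-0.76 ± 0.12, limma adjusted p = 0.000373), and Acaca fell from 142.2 ± 20.8 to 87.6 ± 13.7 CPM (-0.70 ± 0.14, limma adjusted p = 0.00204). Both kept their calls without that WT library, at -0.79 and -0.58. Elovl5 was close to the threshold (-0.25 ± 0.097, limma adjusted p = 0.0476). Its call was lost without any 1 of the 3 WT libraries or without MycKO library 2 or 3 (limma adjusted p = 0.0607 to 0.125, log2 values -0.27 to -0.23).

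Of the early enzymes of the route, Fasn and Acly showed no call in these cells, while Acaca, which acts between them, fell. Elovl1 and Fads1, which act later, were not called either. Fasn measured 409.1, 393.3 and 458.7 CPM in immortalized WT and 272.0, 459.1 and 401.2 CPM in MycKO, which overlapped, and its log2 fold change of -0.19 had a 95% interval from -0.63 to 0.25 (limma adjusted p = 0.473). That interval includes the primary MycKO value of -0.60. For Acly (0.05, 95% interval -0.20 to 0.30) the interval did not include the primary value of -0.48. Fads1 stood at -0.14 with an interval of -0.39 to 0.10. The Elovl6 to Fasn ratio within a library, 0.225 to 0.320 in WT, was 0.0801 to 0.109 in MycKO cells.

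In immortalized MlxKO cells Elovl6, Scd1, Scd2 and Elovl1 were lower than in WT, where 38.9% of all genes were called, 19.1% higher and 19.9% lower. Elovl6 measured 73.1, 74.1 and 73.4 CPM in MlxKO, below all WT libraries (-0.63 ± 0.17, limma adjusted p = 0.0116), and was the only 1 of the 4 that stayed called in every setting tried. Scd1 measured 230.3, 234.2 and 228.7 CPM (-0.54 ± 0.14, limma adjusted p = 0.00984), and Scd2 1444, 1589 and 1622 CPM (-0.51 ± 0.16, limma adjusted p = 0.0257). Both also lay below all WT libraries. Elovl1 went from 99.4, 100.8 and 85.8 CPM to 73.8, 79.2 and 80.8 CPM (-0.28 ± 0.10, limma adjusted p = 0.0439). The calls of Scd2 and Elovl1 were lost without any 1 of WT libraries 1 and 2 and the 3 MlxKO libraries (limma adjusted p = 0.0576 to 0.101 for Scd2, log2 values -0.55 to -0.41, and 0.0821 to 0.131 for Elovl1, log2 values -0.31 to -0.24). Without WT library 3 all 4 stayed called, at -0.44, -0.73, -0.65 and -0.36. Groups did not overlap for 6 of the 10 genes, against 49.1% of all genes.

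This comparison depended on the scaling. Library totals in place of the authors' scaling moved the median of all genes to 0.16 from 0.0073, and under them the split of 0 higher and 4 lower became 2 higher (Acly at 0.38 and Fads1 at 0.43) and 1 lower (Elovl6 at -0.46). Relative to the shift of the median, Scd1 (-0.37), Scd2 (-0.34) and Elovl1 (-0.11) still lay below it. Acly (0.21 under the authors' scaling), Fads1 (0.26) and Fasn (0.15) lay above the median under both scalings and were not called under the authors'.

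In immortalized DKO cells Elovl6, Scd2, Scd1, Acaca, Acly and Elovl5 fell and Elovl1 rose, where 18.9% of all genes were called, 10.4% higher and 8.51% lower. The libraries of DKO and WT were separate for all 10 genes, against 37.1% of all genes. Elovl6 measured 38.4, 48.6 and 42.4 CPM (-1.39 ± 0.17, limma adjusted p = 0.000235), Scd2 953.4, 854.0 and 800.4 CPM (-1.35 ± 0.16, limma adjusted p = 0.000238) and Scd1 165.9, 169.2 and 161.9 CPM (-1.02 ± 0.14, limma adjusted p = 0.000553). These 3 calls were kept in every setting tried. Acly measured 160.4, 155.2 and 148.8 CPM against 194.1, 202.1 and 211.6 CPM in WT (-0.39 ± 0.11, limma adjusted p = 0.0339). Elovl1 measured 126.8, 122.7 and 123.5 CPM, above every WT library (0.38 ± 0.10, limma adjusted p = 0.0225). Fasn, at 357.4, 292.2 and 230.1 CPM, was below every WT library and did not pass (-0.54 ± 0.20, limma adjusted p = 0.0819). Leaving out any DKO library ended the calls of Acly, Elovl1 and Elovl5 (limma adjusted p = 0.0593 to 0.124, log2 values -0.41 to -0.29 for the falls and 0.37 to 0.39 for Elovl1), and leaving out WT library 1 those of Acly (-0.42, 0.0595) and Elovl5 (-0.32, 0.0844). Without DKO library 3 Acaca was also not called (-0.51, limma adjusted p = 0.0537), and without WT library 3 all 7 calls were kept.

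Set against MycKO, immortalized DKO cells held more Fads2 and Elovl1 mRNA and less Acly mRNA. Fads2 measured 102.2, 131.0 and 129.8 CPM in MycKO and 193.7, 179.6 and 177.3 CPM in DKO (0.61 ± 0.12, limma adjusted p = 0.00261), and the DKO libraries lay just below those of WT (-0.15, 95% interval -0.42 to 0.11, not called). The Fads2 to Fads1 ratio was 0.987 to 1.12 in WT, 0.665 to 0.723 in MycKO and 1.03 to 1.13 in DKO. Elovl1 was higher in DKO (0.54 ± 0.10, limma adjusted p = 0.00180) and Acly lower (-0.44 ± 0.11, limma adjusted p = 0.0120), a comparison in which 29.4% of all genes were called, 14.8% higher and 14.6% lower. Groups did not overlap for 5 of the 10 genes, against 49.7% of all genes. Without MycKO library 2 the Acly call was lost (-0.36, limma adjusted p = 0.0545). Scd1 measured 113.3, 133.0 and 133.8 CPM in MycKO and 165.9, 169.2 and 161.9 CPM in DKO. These did not overlap, and Scd1 just missed the threshold (0.39, limma adjusted p = 0.0531). It passed with DESeq2 (0.38, DESeq2 adjusted p = 0.0389) and with only the groups compared (limma adjusted p = 0.0139). Scd2 stood at 0.11 (95% interval -0.25 to 0.46). Fasn was not called (-0.35, limma adjusted p = 0.215) and passed without MycKO library 1 (-0.57, limma adjusted p = 0.0421). The Scd2 to Scd1 ratio was 4.94 to 5.75 in DKO, below the 5.90 to 6.91 of MycKO.

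The interaction in immortalized cells was above 0 for 5 genes and below 0 for Acly. Elovl6 (0.99 ± 0.23, limma adjusted p = 0.00462), Scd1 (0.93 ± 0.20, 0.00239), Elovl1 (0.82 ± 0.14, 0.000787), Fads2 (0.69 ± 0.17, 0.00636) and Scd2 (0.62 ± 0.23, 0.0415) were the genes above 0. For these 5 the effect of Mlx loss was more positive in cells without Myc. For Acly the value was -0.65 ± 0.16 (limma adjusted p = 0.00592). Without WT library 3 all of these calls were kept, at 0.81 for Elovl6, 1.11 for Scd1, 0.89 for Elovl1, 0.72 for Fads2, 0.76 for Scd2 and -0.68 for Acly. As many as 47.4% of all genes were called in this test, 23.7% higher and 23.8% lower. The Scd2 call was lost without any library other than WT library 3 and MycKO library 2 (limma adjusted p = 0.0506 to 0.101, log2 values 0.48 to 0.68), and the other 5 were kept in every setting tried. It was also lost with no filter (limma adjusted p = 0.0977) and under library totals (0.44, limma adjusted p = 0.137). Library totals moved the median of all genes to -0.176 from -0.0133, and under them Fads1 was called (-0.49, limma adjusted p = 0.0224). Fasn (-0.50) and Fads1 (-0.31) were not called in the main fit. Both passed without MycKO library 1 (-0.72, limma adjusted p = 0.0330 for Fasn, and -0.41, 0.0344 for Fads1).

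**Figure D3:**
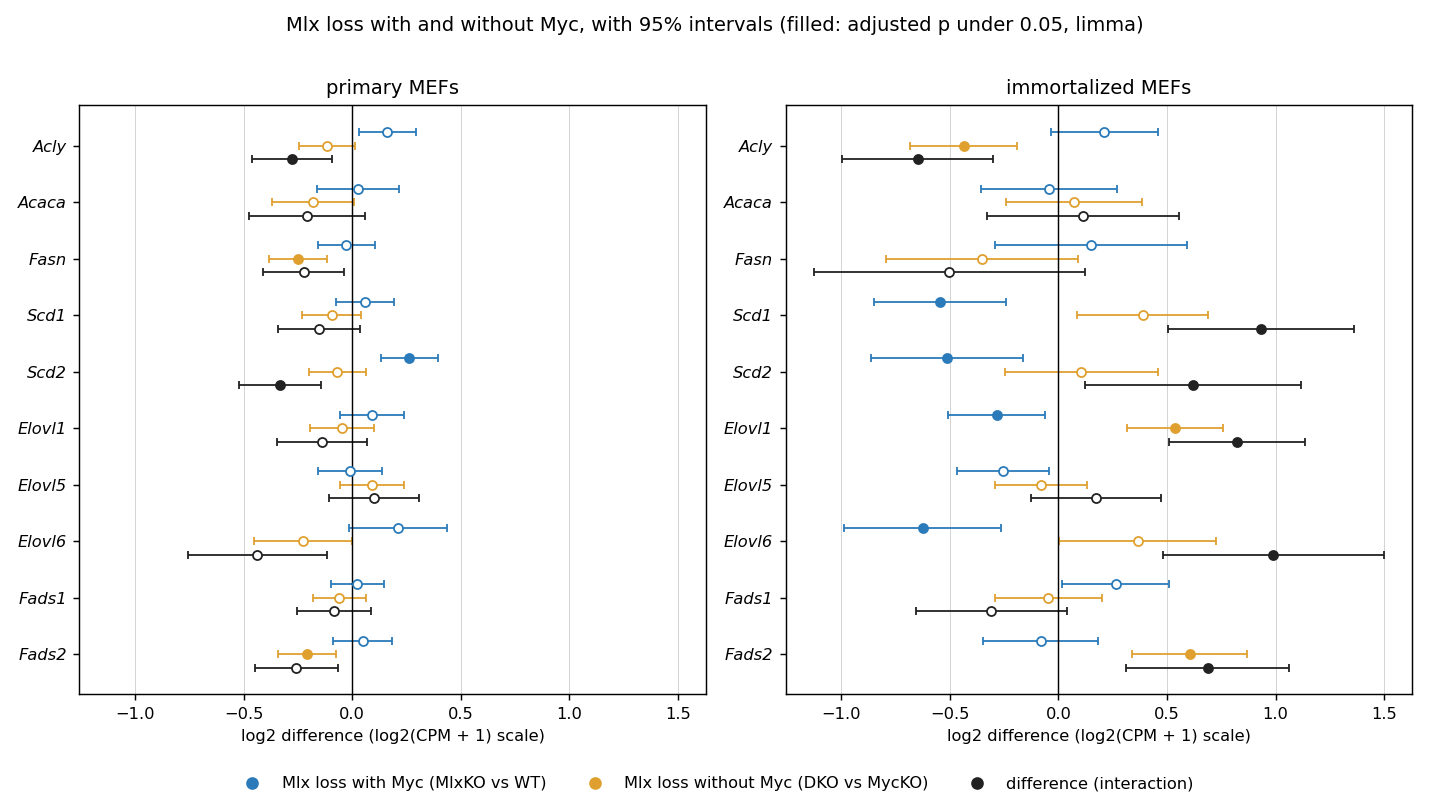
Effect of Mlx loss on each gene in log2 units (horizontal axis) in cells with Myc (MlxKO against WT, blue) and without it (DKO against MycKO, yellow), and the difference between both (interaction, black), with 95% intervals from limma. Filled points passed an adjusted p of 0.05. In immortalized MEFs (right) 5 black points are filled above 0 and that of Acly is filled at -0.65, and in primary MEFs (left) those of Acly and Scd2 are filled below 0.

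Of the regulators, Insig1, itself an SREBP target, was called in all 6 comparisons with WT. It measured 102.8, 92.7 and 106.4 CPM in primary WT and 58.9, 58.7 and 55.8 CPM in MycKO (-0.79 ± 0.072, limma adjusted p = 3.03e-07). Its log2 fold change in primary cells was -1.11 in DKO and 0.29 in MlxKO, and in immortalized cells -1.24 in MycKO, -0.74 in MlxKO and -0.84 in DKO. In the same order the values of Scd2 were -0.95, 0.26, -1.46, -0.51 and -1.35. Those of Fasn were -0.85, -0.03, -0.19, 0.15 and -0.54, of which only the first passed the test. In immortalized MlxKO cells Acly (0.21) and Fads1 (0.26) also stood above 0 without a call, and Elovl1 rose in immortalized DKO cells (0.38). The part of SREBP control in these values was not tested. Insig2, which like Insig1 encodes a protein that retains SREBP precursors, rose in primary MycKO (0.39, limma adjusted p = 0.000847) and DKO cells (0.31) and fell in immortalized MlxKO cells (-0.38). Srebf1, which encodes the SREBP factor most tied to fatty acid synthesis, passed the test in none of the 6 (-0.50 to 0.03), with 108.5 CPM in the immortalized WT library that stands apart and 210.3 and 238.1 CPM in the other WT libraries. Srebf2, the SREBP gene of sterol synthesis, fell in primary DKO (-0.24) and rose in immortalized MlxKO cells (0.48). Scap rose in primary MycKO (0.39), primary DKO (0.53) and immortalized MlxKO cells (0.44). Mlxip stood between 44.1 and 73.6 CPM in every library and was not called in any of the 6, and Mlxipl was at most 0.388 CPM in every library and was not tested. Among all 15 regulators, 14 were tested in each table. In primary cells 4 rose and 2 fell in MycKO, 1 rose and 1 fell in MlxKO, and 5 rose and 4 fell in DKO, beside 42.3%, 8.88% and 49.5% of all genes called. In immortalized cells 2 rose and 4 fell in MycKO, 6 rose and 4 fell in MlxKO, and 0 rose and 3 fell in DKO, beside 48%, 38.9% and 18.9% of all genes. These counts include Myc and Mlx.

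In primary MycKO cells 3 of the 26 tested genes of the 5 other lists (carbon and NADPH supply, other elongation genes, other desaturation genes, mitochondrial synthesis and acyl-CoA synthetases) rose and 9 fell, and in primary DKO cells 3 rose and 11 fell, where 42.3% and 49.5% of all genes were called. In primary MlxKO cells 1 rose and 1 fell, beside 8.88% of all genes. In immortalized cells 27 were tested, and 5 rose and 10 fell in MycKO, 5 rose and 7 fell in MlxKO and 4 rose and 3 fell in DKO, beside 48%, 38.9% and 18.9% of all genes called. Hsd17b12, which performs the ketoreduction of every elongation cycle, fell in primary MycKO (-0.34) and DKO cells (-0.56). Cyb5b, a cytochrome b5 of the outer mitochondrial membrane, fell in primary MycKO (-0.41) and DKO (-0.72) and in immortalized MycKO and DKO cells (both -0.59). Other genes of these lists rose. Cyb5r3 was higher in primary MycKO (0.49), primary DKO (0.30), immortalized MlxKO (0.40) and immortalized DKO cells (0.43). Hacd1 was higher in primary MycKO (0.33), primary DKO (0.54) and immortalized DKO cells (0.62). Fads3, the neighbour of Fads2, did not follow it: in primary MycKO cells it rose by 0.29 from 221.3 ± 3.83 to 270.5 ± 13.9 CPM. In immortalized cells Fads3 was lower in MlxKO (-0.38) and higher in DKO (0.49).

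Of the other elongases, Elovl4, which makes the longest chains, fell in primary MycKO (-0.80) and DKO cells (-0.63), and Elovl7 fell in immortalized MycKO cells (-2.33, limma adjusted p = 9.61e-06). On the supply side Acss2, which makes acetyl-CoA from acetate and is another SREBP target, rose in primary MlxKO cells from 7.57 ± 0.270 to 13.2 ± 0.746 CPM (0.73, limma adjusted p = 0.000509). It fell in primary MycKO (-0.44), primary DKO (-0.53) and immortalized MycKO cells (-1.09). Acsl3, an acyl-CoA synthetase of lipid droplets and the endoplasmic reticulum, fell in 5 of the 6 comparisons, from -0.65 to -1.12, and stood at 0.25 in primary MlxKO cells (limma adjusted p = 0.0528). Of 12 genes of glycerolipid and droplet metabolism, 2 rose and 1 fell in primary MycKO, 1 and 1 in primary MlxKO and 2 and 1 in primary DKO, where 42.3%, 8.88% and 49.5% of all genes were called. In immortalized cells 2 rose and 3 fell in MycKO, 3 rose and 2 fell in MlxKO, and 0 rose and 2 fell in DKO, where the shares of all genes were 48%, 38.9% and 18.9%. Lpin1, a phosphatidate phosphatase, was the lowest of the 12 at -1.49 in MycKO and -1.47 in DKO.

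Sterol synthesis and uptake, the other arm of SREBP control, is given for comparison. Of its 15 genes 14 fell in primary MycKO and 15 in primary DKO cells, while 11 rose and 0 fell in primary MlxKO. Of all genes, 21.9% and 25.5% fell in the first pair and 3.75% rose in primary MlxKO. Their median log2 fold changes were -0.66, -0.97 and 0.36, beside -0.61, -0.79 and 0.05 for the 10 fatty acid genes. Idi1, which isomerizes isopentenyl diphosphate, fell by 1.18 on the log2 scale in primary MycKO and rose by 0.50 in primary MlxKO cells. In immortalized cells 7 of the 15 fell in MycKO, 14 fell in DKO, and in MlxKO 8 fell and 1 (Mvd, 0.89) rose, beside 23.5%, 8.51% and 19.9% of all genes that fell. Each of these comparisons uses the same WT libraries as the others of its table.

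Genes with a pattern most like that of Fasn were sought by the root mean square difference over the 6 log2 fold changes against WT, among 12402 genes tested in both tables. The nearest were Tbrg4 (0.0629), Adsl (0.0662), Rpl14 (0.0749), Rpl6 (0.0796) and Noc2l (0.0807). Of the other 9 fatty acid genes Fads1 (0.168, rank 89) and Acly (0.180, rank 111) were nearest to Fasn. The fold changes of a table share their WT libraries, and the ranking is a description.

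Some values rest on reads that other genes could share. Of the 50-base stretches of Acaca transcripts, 28.2% also occurred in other genes, 26.9% in Gm5182 alone. The share was 3.06% for Scd1, 2.67% for Scd2, 2.93% for Elovl6 and at most 0.159% for the other 6. Acly and Acaca also overlapped exons of Odad4 and Tada2a on the opposite strand.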

How the data were processed

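Poly-A RNA from triplicate preparations of each group was sequenced with directional libraries on an Illumina NovaSeq, and the authors mapped and counted reads on GRCm39 with CLC Genomics Workbench. The deposited signal was CPM that the authors had also scaled between libraries by a method not given in the sources used here (sums of 915691 to 1077213 per library). Whole reads were recovered from 100% of values (tolerance 0.01 reads), which gave the depth. Columns name genotypes but not the replicate numbers of the labels, so libraries were numbered within a group and not paired.

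The test was limma 3.58.1 under R 4.3.3 on log2(CPM + 1) values (mean trend in the prior, 4 groups of a table in 1 fit, genes reaching 1 CPM in 3 or more of 12 libraries). Tests were 2-sided, with Benjamini-Hochberg adjustment over all genes of a table and a threshold of 0.05. An exact permutation test of 3 against 3 libraries cannot go below 0.1 and was not used. A fold change on this scale understates the change of low genes. Primary and immortalized tables were not tested against each other. Alternatives were a pseudocount of 0.1, no filter, a mean of at least 5 CPM, median-ratio scaling, library totals, a robust prior, only the groups compared, omission of each library, count tests of the recovered reads (edgeR 4.0.16, DESeq2 1.42.0), the calls shared by the 3 tools, and a minimum absolute log2 fold change of 0.5. The fits were tested on simulated data for primary MycKO against WT only, with the same spread set for every gene. The immortalized comparisons and the interaction were not simulated. Gene positions and exon lengths were taken from GENCODE vM39 and promoters from RefSeq. Named genes were the 10, 8 regulators (Srebf1, Srebf2, Scap, Insig1, Mlxipl, Mlxip, Myc, Mlx), up to 3 called genes with the largest change per list and comparison with WT, and the 5 nearest to Fasn. The members and lists, the marker lists included, were chosen with earlier results of these data known.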

Additional observations from a re-analysis of the deposited data

Results flagged for a closer look

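By the limma interaction test, 6 of the 10 genes passed in immortalized MEFs, where 47.4% of all genes did. The log2 difference (without Myc minus with Myc) was 0.99 for Elovl6, 0.93 for Scd1, 0.82 for Elovl1, 0.69 for Fads2, 0.62 for Scd2 and -0.65 for Acly, and the call of Scd2 was lost when any of 10 of the 12 libraries was left out. That call was also lost under library totals (limma adjusted p = 0.137) and with no filter (limma adjusted p = 0.0977). In primary MEFs, where 13.5% of all genes passed, the log2 difference was -0.33 for Scd2 and -0.28 for Acly. There the call of Acly was lost without any of 10 of the 12 libraries, and that of Scd2 without WT library 1 or DKO library 3.

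Scd2 moved in opposite directions with the loss of Mlx in both cell states. Against WT it stood at 0.26 (log2) in primary MEFs, where every MlxKO library was above every WT library, and -0.51 in immortalized MEFs, where every MlxKO library was below every WT library. Both calls were lost when certain single libraries were left out. The call in immortalized MEFs was also lost under library totals (-0.34, limma adjusted p = 0.117), with no filter (limma adjusted p = 0.0664) and with only the groups compared (limma adjusted p = 0.0674). The difference between the cell states was not tested.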

How the results depend on the processing

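No paired analysis was possible because nothing links the numbering of the columns to the replicates named in the labels. No value among the 10 genes that was called changed sign under any alternative. With only the groups compared in the fit, the genes called fell from 2 to 1 in primary DKO against MycKO, from 4 to 2 in immortalized MlxKO against WT and from 7 to 3 in immortalized DKO against WT. With a minimum absolute log2 fold change of 0.5 they fell from 1 to 0 in primary MlxKO against WT, from 2 to 0 in primary DKO against MycKO, from 2 to 0 in the primary interaction and from 7 to 4 in immortalized DKO against WT. The primary interaction also fell from 2 genes to 1 with no filter, with median-ratio scaling, with edgeR and with the calls shared by limma, edgeR and DESeq2. Leaving out each library in turn gave 9 genes throughout in primary MycKO and in primary DKO against WT, 0 to 1 in primary MlxKO, 0 to 3 in primary DKO against MycKO and 0 to 2 in the primary interaction. In immortalized cells it gave 5 to 6 genes in MycKO, 2 to 4 in MlxKO, 3 to 7 in DKO, 2 to 4 in DKO against MycKO and 5 to 7 in the interaction. The cause of these losses was not tested. The 10 genes lay far above the floor of 3 reads.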
